A study of Mus musculus with 11 samples.

Results

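The promoters described here are those of 88 genes that encode subunits and close relatives of the mitochondrial respiratory chain, of 22359 protein-coding genes in all. They are the protein-coding genes whose names start with Nduf, Uqcr or Atp5 or with Cox followed by a digit from 4 to 8. By name, 39 were counted with complex I, 8 with complex III, 17 with complex IV and 16 with complex V, the ATP synthase. The 39 include Ndufa4, now known as a subunit of complex IV, and its relative Ndufa4l2. The names also take in 4 assembly factors of complex I (Ndufaf1 to Ndufaf4) and 4 genes that are no subunits (Cox4nb, Cox7a2l, Atp5s and Atp5sl). The 88 gene identifiers carry 87 names, since Ndufb8 has 2 identifiers, and 1 member, Atp5l-ps1, carries the name of a pseudogene.

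PU.1 occupancy was measured by ChIP-Seq, in which the DNA that an antibody recovers with a protein from fixed chromatin is sequenced beside input DNA. MEL cells are a clonal line of murine erythroleukemia cells that stably carries GATA-1 fused to the estrogen receptor ligand-binding domain, and ES-EP are erythroid progenitors derived from embryonic stem cells and kept growing with SCF, erythropoietin, IGF-1 and dexamethasone. The labels give no further treatment for either. Each cell type has 4 ChIP libraries made with an antibody against PU.1 and named by a letter, A or B, and a number, 1 or 2. Libraries with the same letter were taken to come from 1 chromatin preparation and were summed, a reading that the labels do not state. The share of reads at a repeated position went with the number. It was at least 8.27% in the libraries numbered 1 and at most 6.56% in those numbered 2. Reads on unplaced or mitochondrial sequence, counted together, were found in those numbered 1 alone. At complex I the ChIP level went with the letter, in opposite directions in MEL and ES-EP. It was also higher in the library numbered 2 than in that numbered 1 at each letter. The windows of complex I held 60.4 and 73.6 CPM in MEL A1 and A2 against 113 and 151 in B1 and B2, and 158 and 212 CPM in ES-EP A1 and A2 against 82.9 and 118 in B1 and B2. If the number marks the preparation instead, the values given for A and B are not those of separate preparations. Input DNA was sequenced as 1 library for MEL and as 2 for ES-EP. MEL preparations A and B hold 5697937 and 6987141 reads, those of ES-EP hold 6284725 and 7095855, and the inputs hold 4278560 reads for MEL and 7488885 for ES-EP. Read counts are given for 500 bp around 1 transcription start site (TSS) per gene, and levels are depth-scaled reads (CPM, the reads of a window per 1000000 reads of the preparation). In such bulk chromatin, fewer cells bound and less binding per cell cannot be told apart. Occupancy is no check of cell identity. None of 4 promoters of erythroid genes (Gata1, Klf1, Epor and Hbb-b1) passed either test over input in the 500 bp window, and neither did Itgam or Cd3e, markers of other blood cells. The densest 150 bp near Epor (41 ChIP reads, centred at 925 bp) and Klf1 (57, at 1225 bp) lie outside that window and were not tested.

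Complex I takes electrons from NADH, complex III passes them from ubiquinol to cytochrome c, complex IV hands them to oxygen, and complex V makes ATP from the proton gradient that results. Nearly all subunits are encoded in the nucleus, and their promoters are known as targets of NRF1, YY1 and GABP. GABP, like PU.1, is an ETS factor, and both bind DNA with a GGAA core. Erythroid progenitors need respiration and heme made in mitochondria, whereas the mature red cell has no mitochondria.

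The sequences at members with the most reads are shown first, as the ground over which those reads lie. The members and the stretches printed were chosen after their values were seen. At Ndufb9, an accessory subunit of complex I, the start site lies 80 bp from a start site of Tatdn1 on the other strand. The 79 bases between both start sites (chr15:58765286-58765364, plus strand, mm9) hold CCGGAAG, the word used here for a GABP-type ETS site, with its first base in gene direction at -52 and at -25 from the Ndufb9 TSS. Both lie on the opposite strand, so that the capitals show the reverse complement:
Ndufb9: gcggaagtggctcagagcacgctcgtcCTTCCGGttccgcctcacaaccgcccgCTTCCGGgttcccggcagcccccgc

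The 113 bases between Atp5c1, the gamma subunit of ATP synthase, and Kin (chr2:10002138-10002250, minus strand) and the 100 bases upstream of Cox5a, a nuclear subunit of complex IV (chr9:57368939-57369038, plus strand), do not hold this word and have no capitals. They are printed because the densest reads of both genes lay at -25 bp:
Atp5c1: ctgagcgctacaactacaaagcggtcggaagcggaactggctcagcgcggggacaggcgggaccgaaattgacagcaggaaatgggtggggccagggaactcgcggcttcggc
Cox5a: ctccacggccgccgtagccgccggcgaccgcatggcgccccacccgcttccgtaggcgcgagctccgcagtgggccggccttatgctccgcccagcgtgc

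AGGAAG, the word used for a PU.1-type site, is not in the 500 bp windows of Ndufb9, Atp5c1 or Cox5a. It was found near the densest reads of some other members. It starts at 68 in Ndufb5 (chr3:32635968-32635997, plus strand) and at -4 in Cox5b (chr1:36748316-36748345, plus strand), and does not match where CCGGAAG does, since the base before GGAAG differs. A stretch of 30 bases around each is shown with the word or its reverse complement in capitals:
Ndufb5: tagccctccccaCTTCCTtccgtggccggt
Cox5b: gctggtcggggcAGGAAGcggaagactgac

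Ndufb9 stood far above the other members. Its window held 153 and 361 reads in the MEL preparations and 556 and 278 in those of ES-EP, against 6 in the MEL input and 5 and 10 in the ES-EP inputs. These are 26.9 and 51.7 CPM in MEL and 88.5 and 39.2 in ES-EP, so that the preparations of a cell type differed from each other and overlapped with those of the other cell type. Summed over preparations, ChIP was 28.9-fold over input in MEL (95% exact interval of the reads 13.2 to 79.1) and 31.1-fold in ES-EP (18.8 to 55.9), intervals that cover counting error only. Ndufb9 ranked 19 of all 22359 windows by its mean ChIP level, and it alone held 23.4% of the ChIP reads of the 88 members. Its densest 150 bp were centred at -25 bp, over the words shown above, and held 1145 ChIP reads against 1 in the MEL input and 8 in the ES-EP input. With at most 1 read per position and strand, 395 of its 514 MEL reads and 533 of its 834 ES-EP reads were left. In limma (voom, two-sided, Benjamini-Hochberg over all windows) the log2 difference of ChIP over input was 4.62 ± 0.90 (SE) in MEL (adjusted p = 0.000247) and 4.77 ± 0.73 in ES-EP (adjusted p = 1.51e-07). This call rests on treating the ES-EP input libraries as separate samples, which may be technical, and on the lone MEL input varying like the others. With the ES-EP inputs summed the adjusted p in limma was 0.097 in MEL and 0.115 in ES-EP, with differences of 4.61 and 4.84. With a trend on log2 CPM in place of voom it was 0.277 and 0.227.

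**Figure D1:**
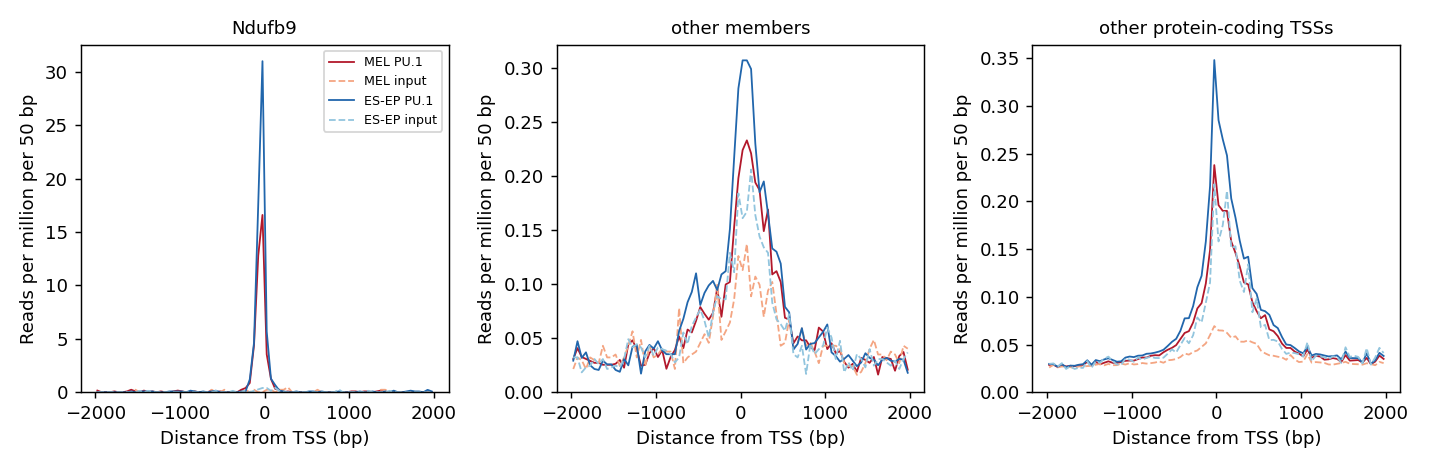
CPM in bins of 50 bp against the distance from the TSS, for Ndufb9, the mean of the other 87 members and the mean of the other 22271 protein-coding genes, with MEL cells in red, ES-EP in blue and inputs dashed; the vertical axes differ. Ndufb9 has 1 narrow maximum just upstream of its TSS, where the inputs are near 0, while in the means the inputs, above all that of ES-EP, also rise toward the TSS.

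Over all windows, limma called 637 higher in ChIP than in input in MEL, or 2.85%, and 502 in ES-EP, or 2.25%. Among the 88 members it called 2 in MEL, Ndufb9 and Uqcrfs1, and 3 in ES-EP, Ndufb9, Ndufb5 and Ndufs4. No member was called lower than input. With the ES-EP inputs summed, limma called 0 members and 0 of all windows higher, of which 2768 in MEL and 1377 in ES-EP had an unadjusted p under 0.05. A two-sided exact binomial test of the summed reads, which compares these libraries and not the conditions, called 13 members higher in MEL, where it called 10.6% of all windows, and 10 in ES-EP, where it called 9.18%. Of these, 7 were called in both cell types, among them Ndufb9, Ndufb5, Cox5a, Cox5b, Atp5c1 and Atp5g3. That is 7 of 88 members, against 6.06% of all windows. In MEL cells alone the test called Ndufab1, Ndufaf2, Uqcrfs1, Cox4i1, Atp5j and Cox4nb, and in ES-EP alone Ndufa9, Ndufs4 and Ndufv1, with no test of the difference in that statement. In the MEL input Ndufab1, Ndufaf2, Cox4i1 and Atp5j had 1 read each and Uqcrfs1 had 0. The log2 differences of their ChIP, MEL against ES-EP, were 0.33, -0.10, -0.89, -0.72 and 0.03, in that order. Limma called none of these differences. The windows of Cox4i1 and Cox4nb share reads. CpG-rich windows (observed over expected CpG of at least 0.6 and GC of at least 55%) make up 57 of the 88 members and 10231 of all windows. Among all CpG-rich windows the binomial test called 21.4% in MEL, 17.4% in ES-EP and 12.1% in both, and among the 57 members it called 13, 8 and 7.

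The median member had more ChIP reads than the median of the other genes, and more input reads too. It had 0.878 and 1.72 CPM in the MEL preparations against 0.527 and 0.859 for the other genes. In ES-EP it had 1.59 and 1.2 against 0.636 and 0.705. The input medians were 0.701 against 0.467 in MEL and 1.07 against 0.534 in ES-EP. By mean ChIP level the median member stood at percentile 64.6 of all windows, with 12 members in the top 10% and 1, Ndufb9, in the top 1%. Against CpG-rich windows alone the medians of ChIP were not higher. The 57 CpG-rich members had ChIP medians of 1.23 and 2.29 CPM in MEL and 2.55 and 1.97 in ES-EP, against 1.23, 2.29, 2.86 and 1.97 for all 10231 CpG-rich windows, and a median percentile of 73.5 against 75.8. The top 10% held 12 of the 57 and 2123 of the 10231. Summed over the members, ChIP over input was 1.51 and 2.91 in preparations A and B of MEL and 2.57 and 1.48 in those of ES-EP. Without Ndufb9 these ratios were 1.2, 2.32, 1.9 and 1.2, against 1.95, 3.31, 1.94 and 1.11 for the other protein-coding genes, which keep their highest windows. For the CpG-rich members, with Ndufb9, the ratios were 1.87, 3.6, 2.63 and 1.48. All CpG-rich windows had 2.03, 3.95, 2.36 and 1.35. The preparations of a cell type thus lay further apart than the means of both cell types, which were 2.21 for MEL and 2.03 for ES-EP with all members.

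**Figure D2:**
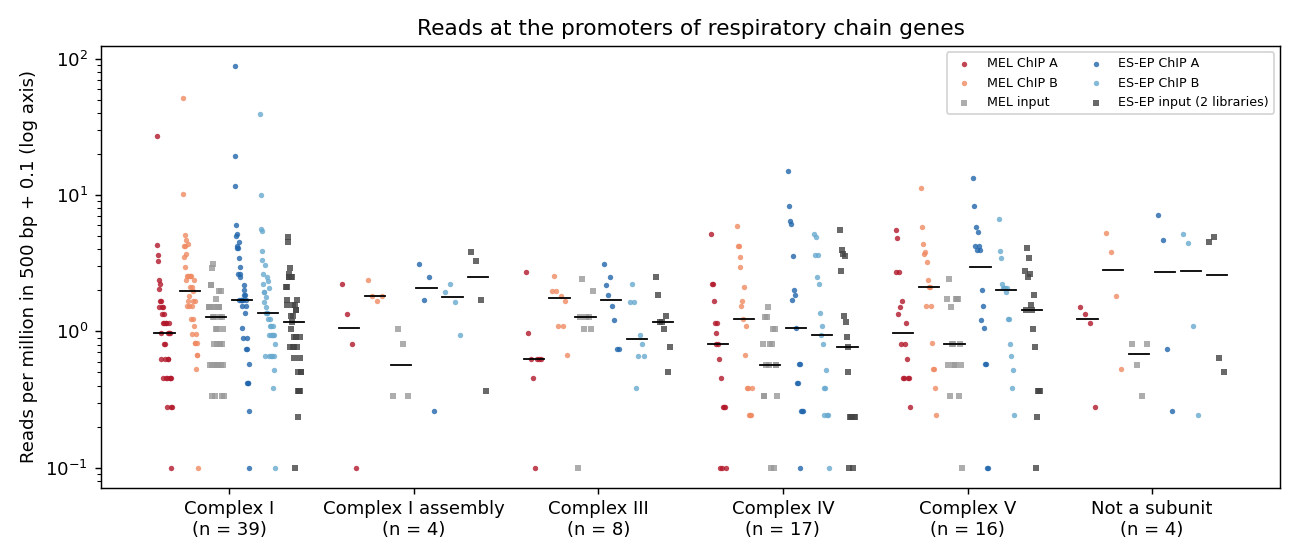
CPM in 500 bp around the TSS, plus 0.1 on a log axis, of each member by complex, with circles for the 4 ChIP preparations, squares for the inputs (both ES-EP inputs summed) and black bars for medians. The points of Ndufb9 are the highest in every ChIP column of complex I, and in every complex the ChIP points overlap with the input points.

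Complex I, the largest group, had 4 binomial calls in MEL and 6 in ES-EP among its 39 members, of which 28 are CpG-rich, against the 10.6% and 9.18% of all windows and the 21.4% and 17.4% of CpG-rich ones given above. Beside Ndufb9, Ndufb5 and Ndufv1 were among the highest. Ndufb5, an accessory subunit, had 24 and 70 reads in the MEL preparations, 120 and 70 in ES-EP, 6 in the MEL input and 4 and 8 in the ES-EP inputs. That is 5.28-fold over input in MEL (2.34 to 14.8) and 8.86-fold in ES-EP (4.96 to 17.5). In limma the ES-EP difference was 2.98 ± 0.73 (adjusted p = 0.00464), and the MEL difference of 2.11 ± 0.88 did not pass (adjusted p = 0.181). Without ES-EP preparation A the ES-EP call was lost, at 2.51 and an adjusted p of 0.132 in limma. Its densest reads were centred at 75 bp, beside the AGGAAG word shown above. A start site of Mrpl47 lies 82 bp from that centre and 157 bp from the Ndufb5 TSS. The reads of this window therefore cannot be assigned to Ndufb5 alone.

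Ndufv1, which holds the NADH site, had 20 and 24 reads in MEL, 37 and 23 in ES-EP, 6 in the MEL input and 2 and 9 in the ES-EP inputs. Its ratios were 2.47 in MEL (1.05 to 7.10) and 3.05 in ES-EP (1.59 to 6.44), with wide overlap of the intervals.

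Ndufs4, an accessory subunit, was called in ES-EP on few reads. It had 2 and 14 reads in MEL, 12 and 4 in ES-EP, 2 in the MEL input and 0 in both ES-EP inputs. With 3 input reads over both libraries set in place of 0, ES-EP ChIP was 2.98-fold over input. The lower limit of the 95% exact interval was 2.16. The limma call (adjusted p = 0.0315) was lost in a 1000 bp window (adjusted p = 0.403) and also without ES-EP preparation A. Ndufb11, with the fewest reads of the complex, had 1 and 0 reads in MEL, 3 and 0 in ES-EP and 1, 1 and 2 in the inputs, so that enrichment was not detectable at this depth. Without Ndufb9 the 38 other members of complex I had summed ratios of 1.00 and 2.01 in the MEL preparations and 2.09 and 1.37 in those of ES-EP.

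Among the assembly factors of complex I, Ndufaf2 had the most reads, with 12 and 16 in MEL, 19 and 13 in ES-EP, 1 in the MEL input and 8 and 20 in the ES-EP inputs. The MEL ratio of 9.44 rests on that single input read (1.56 to 386), and the ES-EP ratio was 0.640 (0.373 to 1.10). Ndufaf4 and Ndufaf3 lay between 4 and 15 reads in every preparation. Ndufaf1 had 0 and 12 reads in MEL and 1 and 6 in ES-EP, with the higher count in preparation B of both. Limma called none of the 4.

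Complex III had the lowest ratios of the 4 complexes in the 500 bp windows, 0.623 and 1.25 in the MEL preparations and 1.38 and 0.862 in those of ES-EP. The densest 150 bp were centred outside the window in 5 of its 8 members. This was so for 16 of 39 in complex I, 8 of 17 in complex IV and 5 of 16 in complex V. The member of complex III with the most reads was Uqcrfs1, the Rieske iron-sulfur protein, with 15 and 13 reads in MEL, 19 and 11 in ES-EP, 0 in the MEL input and 2 and 16 in the ES-EP inputs. With 3 reads set in place of the 0 of the MEL input, ChIP was 3.15-fold over input in MEL. The lower limit of the 95% exact interval was 2.4. In ES-EP the ratio of Uqcrfs1 was 0.933 (0.503 to 1.78). Its ChIP differed between cell types by 0.03 ± 0.63 (log2), and the MEL call in limma (adjusted p = 0.0102) was lost in a 1000 bp window (adjusted p = 0.281). Uqcrc1 and Uqcrc2, the core proteins, had 5 and 17 and 3 and 13 reads in MEL and 13 and 15 and 11 and 11 in ES-EP, and Uqcrb had 2, 7, 15 and 2 in the same order. Uqcr11, with the fewest, had 3, 4, 4 and 4 reads against 8 in the MEL input. These last 4 genes passed neither test.

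In complex IV, Cox5a and Cox5b, nuclear subunits used in all tissues, came first. Cox5a had 29 and 41 reads in MEL, 94 and 36 in ES-EP, 3 in the MEL input and 12 and 29 in the ES-EP inputs. The ratio was 7.87 in MEL (2.58 to 39.1) and 1.77 in ES-EP (1.24 to 2.59), where the input window held the most reads of any member. In ES-EP it was 2.73 in preparation A and 0.927 in B, so that the binomial call there rests on preparation A. Cox5b had 12 and 29 reads in MEL, 52 and 25 in ES-EP, 1 in the MEL input and 7 and 13 in the ES-EP inputs, and ratios of 13.8 (2.35 to 559) and 2.15 (1.3 to 3.72). Its densest reads lay at -25 bp, beside the AGGAAG word at -4. Limma called neither gene in either cell type (adjusted p from 0.0961 to 0.751).

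Cox4i1 and Cox4nb stand head to head with start sites 178 bp apart, so that their windows share reads. Cox4i1 had 12 and 29 reads in MEL, 40 and 34 in ES-EP, 1 in the MEL input and 9 and 20 in the ES-EP inputs. Cox4nb had 8, 36, 44 and 36 reads in the same order of preparations. The densest 150 bp seen from Cox4i1 were centred at 425 bp downstream. The centre lay outside the 500 bp window in 39 of the 88 members, against 12934 of all 22359 genes. In 11 of these 39 the start site of another gene identifier was nearer to that centre than the member's own. For Ndufb8 this was the other identifier of the same name. Members with the centre outside include Ndufa4, with 73 reads in 150 bp centred at -325 bp, and Uqcrc2, with 74 at 275 bp. Their windows therefore leave out a part or all of the densest stretch, which was chosen for its height and was not tested.

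Complex V had ratios of 1.64 and 2.91 in the MEL preparations and 2.34 and 1.28 in those of ES-EP. Atp5c1 had 31 and 78 reads in MEL, 83 and 47 in ES-EP, 7 in the MEL input and 4 and 16 in the ES-EP inputs, which is 5.25-fold (2.46 to 13.4) and 3.64-fold (2.26 to 6.15) over input. Atp5g3, 1 of 3 genes for the same subunit c, had 15 and 40 reads in MEL, 52 and 27 in ES-EP, 2 in the MEL input and 2 and 8 in the ES-EP inputs, or 9.28-fold (2.45 to 78.5) and 4.42-fold (2.28 to 9.58). Atp5j had 7, 25, 36 and 15 reads, and the densest reads near it lay 725 bp downstream of its TSS. They are nearer to the start of Gabpa, 224 bp away, which lies 501 bp from that of Atp5j. Limma called no member of complex V, with the lowest adjusted p of these 3 genes at 0.129 in MEL and 0.14 in ES-EP. Atp5l-ps1 had the fewest reads, with 1, 1, 0 and 1.

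Several subunits come in isoforms, a widely expressed one and one restricted to muscle, testis or other tissues. The 6 widely expressed genes Cox4i1, Cox6a1, Cox6b1, Cox7a2, Cox7b and Cox8a had median counts of 5 and 17 in MEL and 16 and 16 in ES-EP. The 7 restricted genes Cox4i2, Cox6a2, Cox6b2, Cox7a1, Cox7b2, Cox8b and Cox8c had medians of 1 and 2 in MEL and 2 and 2 in ES-EP. Input medians fell in the same order, 3.5 against 2 in MEL and 17.5 against 1 in ES-EP, and 4 of the 6 but 0 of the 7 windows were CpG-rich. Summed ratios to input were 1.39, 3.03, 1.46 and 1.09 for the first set and 0.469, 1.07, 1.67 and 1.48 for the second (each in the order of MEL A and B, then ES-EP A and B). The binomial test called 1 of the 6, Cox4i1 in MEL, and 0 of the 7, beside 10.6% (MEL) and 9.18% (ES-EP) of all windows, and limma called none of either set.

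The restricted genes held few reads one by one. Cox6a2, the muscle form, had 0, 2, 1 and 0 reads, while Cox6a1 had 9, 24, 38 and 17. Cox8b and Cox8c had 0, 7, 2 and 1 and 0, 2, 3 and 2, while Cox8a had 4, 10, 22 and 15. Cox4i2, Cox6b2 and Cox7b2 had at most 5 reads in any preparation. Cox7a1 was the exception, with 5, 11, 12 and 9 reads beside 6, 20, 10 and 25 for Cox7a2, and Cox7b, counted as widely expressed, had only 2, 2, 3 and 2. Cox6c, which has no such partner, had 6, 8, 11 and 6 reads. Ndufa4 had 0, 4, 0 and 5 reads and Ndufa4l2 had 5, 3, 4 and 6. The genes of subunit c encode the same mature protein, and Atp5g1 had 6, 5, 6 and 5 reads, Atp5g2 27, 30, 26 and 24 and Atp5g3 15, 40, 52 and 27. Atp5g2 had 10 reads in the MEL input and 7 and 23 in the ES-EP inputs, and of the 3 genes Atp5g3 passed the binomial test over input and the others did not.

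**Figure D3:**
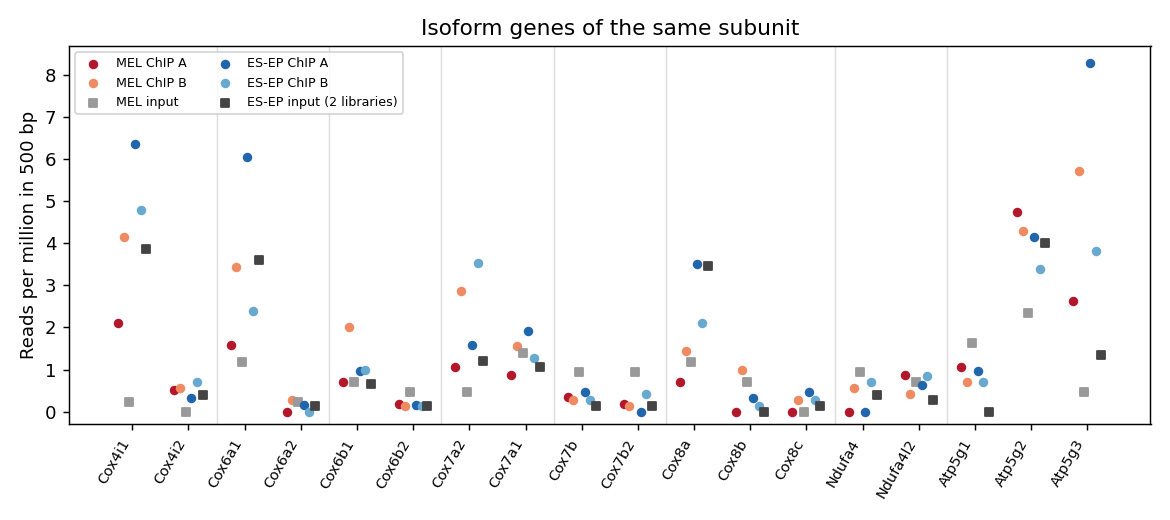
CPM in 500 bp around the TSS of isoform genes of the same subunit, with circles for the 4 ChIP preparations and squares for the inputs, and grey lines between subunits. Cox4i1, Cox6a1 and Cox8a lie above their restricted partners in ChIP and in the ES-EP input, and of the subunit c genes Atp5g2 has ChIP close to its input in ES-EP (0.933-fold) and above it in MEL (1.92-fold, 0.973 to 4.22).

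The comparison of MEL cells with ES-EP asked whether PU.1 lies at these promoters differently in leukemic and normal erythroid cells. With limma over the 4 preparations, 0 of the 88 members and 0 of all 22359 windows (0%) passed. At an unadjusted p under 0.05, limma had 571 windows higher and 711 lower in MEL, and 0 and 1 of the members. The binomial test was not applied to this comparison, and limma with a trend also called 0. Log2 differences of the members ran from -1.43 (Ndufb4) to 1.31 (Ndufs1), with a median of -0.28 against -0.22 over all genes. The median of the members was 0.07 with median-ratio scaling, which moved that of all genes to 0.14, so that its sign depends on the scaling. Leaving out MEL preparation A also turned it, to 0.09.

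The first of the members by limma was Ndufc1, a small accessory subunit, with 5 and 10 reads in MEL against 21 and 21 in ES-EP. Its log2 difference in limma was -1.41 ± 0.62 (adjusted p = 0.797), and it was the 1 member with an unadjusted value under 0.05. It lies on chromosome 3, where the depth-scaled ratio of MEL input to ES-EP input was 1.334 times the median over the autosomes. Cox8a, with 4 and 10 against 22 and 15 reads, and Ndufb4, with 1 and 8 against 13 and 8, followed at -1.35 ± 0.65 and -1.43 ± 0.79. Ndufb9, on chromosome 15 with an input ratio of 1.328 on the same scale, had a difference of -0.67 ± 0.88 in limma (adjusted p = 0.869). Both MEL preparations lay below both ES-EP preparations for 9 members, or 10.2%, against 19.2% of all windows, and above them for 5, against 12.1%. Among CpG-rich windows MEL lay below for 15.8% of the members against 28% of all, and above for 7.02% against 6.17%.

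**Figure D4:**
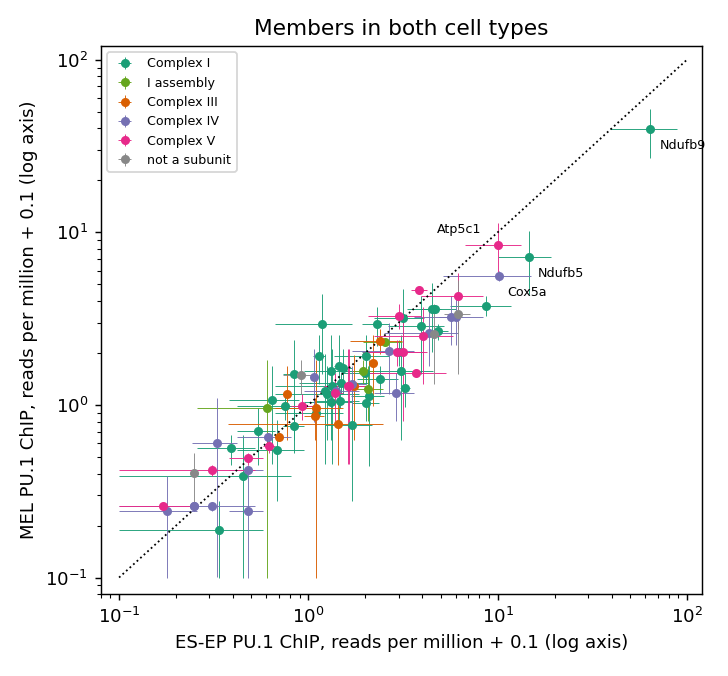
Mean CPM of each member in ES-EP and MEL ChIP, plus 0.1 on log axes, coloured by complex, with bars that reach from preparation A to preparation B and a dotted line of equal levels. The members follow the line up to Ndufb9, and the preparations of MEL lie wholly below those of ES-EP for 9 members and wholly above for 5.

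The same comparison after subtraction of the input, as the interaction in limma, called 1 of all windows, or 0.00447%, and 0 members. Lowest in p among the members were Uqcrfs1 (log2 4.11 ± 1.3, adjusted p = 0.331 in limma), Ndufa9 (-3.43 ± 1.17, adjusted p = 0.407) and Atp5g1 (-3.53 ± 1.24, adjusted p = 0.415). In each the inputs differed between the cell types. Uqcrfs1 had 0 reads in the MEL input, Ndufa9 had 13 in the MEL input and 4 and 1 in the ES-EP inputs, and Atp5g1 had 7 against 0 and 0. Their ChIP levels differed by 0.03, -1.11 and 0.08 on the log2 scale.

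Words known from promoters of respiratory genes were searched on both strands of the 500 bp windows, and a match is a description only. CGCATGCG, the NRF1 word, was in 11 members, or 12.5%, against 2.59% of all windows and 4.68% of the CpG-rich ones. AAGATGGCG, the YY1 word, was in 12, or 13.6%, against 2.94% and 5.18%. CCGGAAG was in 22, or 25%, against 14.3% of all windows and 23.7% of the CpG-rich ones, and AGGAAG was in 41, or 46.6%, against 49.4% and 41.4%. GGGCGG, the Sp1 word, and CCAAT, the NF-Y word, were in 52.3% and 39.8% of members against 53.4% and 47.7% of all windows and 87.7% and 41.8% of the CpG-rich ones. Among the 57 CpG-rich members the share was 17.5% for the NRF1 word, 17.5% for the YY1 word, 29.8% for CCGGAAG, 38.6% for AGGAAG, 66.7% for the Sp1 word and 35.1% for the NF-Y word, which are the values to set beside those of CpG-rich windows.

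Members with an NRF1 word, such as Uqcrc1, Cox6a1, Atp5g2 and Ndufaf4, had summed ChIP over input of 0.894 and 1.54 in MEL and 1.34 and 0.856 in ES-EP, and 0 of the 11 passed the binomial test. That test called 10.6% and 9.18% of all windows, and 21.4% and 17.4% of the CpG-rich ones, to which 10 of the 11 belong. The 77 members without the word had ratios of 1.64 and 3.21 in MEL and 2.8 and 1.6 in ES-EP, with 13 and 10 binomial calls. Without Ndufb9, which lacks the word, the ratios of the other 76 were 1.27, 2.49, 2.01 and 1.26. The 22 members with CCGGAAG had 4 binomial calls in MEL and 2 in ES-EP, and the 66 without it had 9 and 8. Those with AGGAAG numbered 4 of 41 in MEL and 6 of 41 in ES-EP, and those without it 9 and 4 of 47. These groups differ in CpG content. CpG-rich windows made up 22 of the 41 with AGGAAG and 35 of the 47 without it. For CCGGAAG they made up 17 of the 22 and 40 of the 66. All 13 members called in MEL and 8 of the 10 called in ES-EP were CpG-rich. A start site of another gene on the opposite strand lay within 1000 bp upstream, or overlapped by up to 100 bp, in 22 members, or 25%, against 8.73% of all genes. Examples are Ndufb9 with Tatdn1, Atp5c1 with Kin, Ndufaf2 with Ercc8 and Ndufs1 with Eef1b2, and reads at such promoters cannot be assigned to 1 of the pair. Of these 22 members the binomial test called 5 in MEL and 2 in ES-EP, against 20.9% and 22.3% of all 1952 promoters of this kind.

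Other genes of the respiratory chain, its assembly and its regulation, which the name rule leaves out, were read from fixed lists. Their counts stand against 2.85% (MEL) and 2.25% (ES-EP) of all windows called by limma and 10.6% and 9.18% called by the binomial test. Since 6 of 6 genes of complex II, 21 of the 24 assembly factors and 13 of the 16 regulators have CpG-rich windows, the shares of 21.4% and 17.4% of such windows called by the binomial test also apply. Of 6 genes of complex II and its assembly the binomial test called 1 in MEL, Sdhaf2, and 1 in ES-EP, Sdhb, and limma called 0. Sdha, Sdhb, Sdhc and Sdhd, its 4 subunits, had 6, 11, 0 and 10 reads in MEL A, 19, 39, 9 and 18 in MEL B, 20, 47, 11 and 29 in ES-EP A and 15, 34, 10 and 8 in ES-EP B. Cyc1 and Cycs, cytochromes c1 and c, had 11, 25, 32 and 16 and 13, 15, 20 and 15 reads in the 4 preparations, and 0 of 3 genes of that list passed. Cyc1, whose name does not start with Uqcr, is not among the 8 genes counted with complex III. Of 24 assembly factors found by name, of 26 listed, limma called 1 in MEL and 2 in ES-EP and the binomial test 6 and 7. The highest was Cox18, which inserts a subunit of complex IV into the membrane, with 35 and 101 reads in MEL and 185 and 98 in ES-EP (15.3-fold and 6.34-fold over input).

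Of 16 regulators of mitochondrial genes, limma called 1 in MEL and 2 in ES-EP, and the binomial test 3 and 2. Tfb2m, a mitochondrial transcription factor, had 44 and 204 reads in MEL, 379 and 205 in ES-EP, 5 in the MEL input and 11 in the ES-EP inputs, and ranked 41 of all windows. Polg, the mitochondrial DNA polymerase, had 37, 99, 252 and 106 reads. Both these genes, Cox18 and Sdhaf2 were named after their values were seen. Nrf1, Gabpa, Tfam, Esrra and Yy1, known activators of respiratory genes, had between 7 and 58 reads in every preparation and passed neither test, and Ppargc1a, a coactivator, had 1 read in each.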

How the data were processed

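The authors aligned Illumina reads to mm9 with ELAND (version not stated) and kept unique alignments with up to 2 mismatches. Each line of the deposited files is 1 aligned read with no value attached, and all counts were made here from these lines. Reads on unplaced and mitochondrial sequence were left out. Each 5′ end was moved by 70 bp (MEL) or 65 bp (ES-EP) and counted in 500 bp around the TSS of the protein-coding transcript with the longest coding sequence (GENCODE on NCBIM37, which is mm9). A densest stretch is the 150 bp with the most ChIP reads within 2000 bp. Windows were tested with limma 3.58.1 (voom, R 4.3.3, total reads as depth, no filter, 22359 windows). The same fits were also run on simulated counts with 1 fixed spread, which was not estimated from these preparations. That run therefore does not show how often the tests err at the spread seen here. Calls have an adjusted p below 0.05. Libraries sharing a letter, read as 1 preparation, were summed, leaving n = 2 per cell type, and intervals are exact binomial. Letters A and B were not treated as pairs. Named genes are, per complex, the 4 members with the most ChIP reads and the 1 with the fewest, the isoform genes, the 3 members with the lowest p between cell types and fixed partner genes. Members named because a test over input called them, or as an extreme, were chosen after their values were seen. Not every gene that this rule names is reported here. The members and lists were chosen with earlier results of these data known. Alternatives cover scaling, window, repeated reads, TSS choice, filter, test and libraries left out.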

Additional observations from a re-analysis of the deposited data

Results flagged for a closer look

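Within a cell type, the 4 ChIP libraries were compared for each named member and for each complex, in CPM, and a library was singled out where its gap to the nearest other, as a share of the range, exceeded Dixon's critical value for 4 samples. Of 92 such groups, 10 had a library apart. A rate of about 1 in 20 holds for 4 interchangeable normal values, which these counts are not, so the 10 cannot be set against it. In 5 of the 10 groups the library apart had 1 or 2 reads and the other libraries of that cell type none, a pattern that the rule always flags. These were Ndufb11 in MEL A1 (0.487), Cox6a2 in MEL B2 (0.47) and ES-EP A2 (0.254), Cox8c in MEL B2 (0.47) and Atp5l-ps1 in ES-EP B2 (0.207). Cox7a2 had 4.23 in MEL B2, with 18 reads, against 0.731 to 1.1 in the other MEL libraries. Cox7a1 had 2.29 in ES-EP A2. Uqcrfs1 was low in MEL B1 (0.731) and high in ES-EP A2 (3.81). The assembly factors of complex I together were low in ES-EP B1, at 3.1 against 7.12 to 7.85 in the other ES-EP libraries.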

How the results depend on the processing

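The members called over input depended on the inputs and on the test. In MEL, where limma called 2, it called 1 with at least 20 summed ChIP reads and 1 in 1000 bp, 0 with the ES-EP inputs summed and 0 with a trend in place of voom, while the exact binomial test called 13. In ES-EP, where limma called 3, it called 0 with the inputs summed, 0 with the trend and 10 with the binomial test. Leaving out 1 library or preparation gave 0 to 4 in MEL and 0 to 3 in ES-EP, with 0 without either ES-EP input (an alternative chosen after seeing the data), 4 without MEL A and 1 without ES-EP A. Why the calls were lost with fewer input libraries was not tested. Over all windows the calls over input, 637 in MEL and 502 in ES-EP, were 1167 in MEL without MEL A and 113 without MEL B, 403 in 1000 bp and 241 with at least 20 reads, and 162 in ES-EP without ES-EP A. Between cell types the 0 calls over all windows became 161 higher and 74 lower in MEL with median-ratio scaling and 72 and 69 with each library as a sample. Between cell types, 0 members were called under every alternative run, with and without the input.

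Some single differences over input turned direction. Limma called none of these differences, and the binomial test called that of Cox5a. Without each preparation or ES-EP input in turn, ES-EP values ran from -0.12 to 1.29 (Atp5j), -0.10 to 1.45 (Cox5a), -0.39 to 0.08 (Ndufab1) and -0.54 to 1.14 (Uqcrfs1), and MEL values from -0.41 to 1.83 (Ndufs4). Uqcrfs1 in ES-EP was -0.13 with inputs summed and -0.12 in the binomial test. The cause was not tested. Of the other values of single genes, 500 kept direction and side of the threshold, 26 lost a call and 18 gained one. In a window of 300 bp, shortened on the downstream side only, AGGAAG was in 28.4% of members against 34.5% of all windows. The YY1 word was in 6.82% against 1.95%.

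The letters do not pair the preparations (r = -0.0839 between the deviations of both A preparations over 10918 windows), and with the letter as replicate block 0 members were called, with 3 of all windows against 0. At these depths 46 members have 0 to 3 reads in the MEL input, which limits every ratio in MEL. Intervals cover counting error only.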
